A study of Mus musculus with 6 samples.

Results

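Chemokines are small secreted proteins that steer white blood cells by binding receptors of the G protein-coupled class. Lymphoid chemokines such as Cxcl12 and Cxcl13 place lymphocytes and other blood cells in tissue at rest, whereas inflammatory chemokines such as Ccl2 or Cxcl9 call monocytes, neutrophils or effector T cells to injured or infected tissue. LIGHT, the product of Tnfsf14, is a tumour necrosis factor family ligand that binds the lymphotoxin beta receptor (Ltbr) and Tnfrsf14. The lymphotoxin beta receptor acts through NF-kappaB factors and is known for inducing lymphoid chemokines in the stroma of lymphoid organs.

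The genes described here are the chemokines and chemokine receptors on the array, taken as every probe set annotated with 1 gene symbol that starts with Ccl, Cxcl, Cx3cl, Xcl, Ccr, Cxcr, Cx3cr or Xcr followed by a digit. There were 78 such probe sets of 45037, for 50 genes of 18193, namely 33 ligands and 17 receptors. Whole liver was profiled in 3 LIGHT Tg and 3 WT samples, 1 Affymetrix array each. The LIGHT Tg mice carried a LIGHT transgene, for which neither the promoter nor the strain background is given in the sources used here. The WT mice were B6. All 6 samples came from mice 4 to 8 weeks old that had been fed the high-fat diet TD88137 for 2 weeks. Genotype was read from title and source name, although the description field calls every sample wild type. Because a strain is named for WT alone, genetic background and transgene cannot be told apart. Nothing in the labels says outright that samples are separate animals, so a p-value here reflects sample-to-sample spread, which may be technical in part. By the Xist and Eif2s3y signals given below, each genotype holds both sexes, so its arrays are not all of the same animal.

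A value is the authors' MAS5 signal on a linear scale, and a difference is the mean log2 signal of LIGHT Tg less that of WT. Tests were run with limma on the 22519 probe sets whose mean log2 signal reached the median of all probe sets, 7.39, which is a signal of 167.4. Of the 78 member probe sets, 31 passed that filter and 47 did not, so that 21 genes were tested at their brightest probe set and 29 were not. A call is an adjusted p below 0.05 after Benjamini-Hochberg adjustment. Signals of different probe sets depend on the probes and are not set against each other.

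Summed signal lay between 30816000 and 32495900 per array. The arrays titled 77 and 78 (LIGHT Tg 1 and WT 1) stood apart from those titled 30 to 35 on the first principal component (48.0% of variance). Xist signals were 407 and 444 on this pair and 7993 to 9714 on the other 4, and Eif2s3y, a Y-linked gene, had 1272 and 1037 against at most 2.82. By these 2 genes the pair was male and the other 4 were female, which the labels do not state. Sex and any other difference between the sets of title numbers cannot be told apart. Since 1 LIGHT Tg and 1 WT array make up the pair, results are also given with the title-number set as a block in the fit (the block), and within each set. Hepatocyte markers summed to 116395 to 121268 in LIGHT Tg and 124294 to 129418 in WT, and none of the 7 was called. Their median difference was -0.01. Of the 7, Cyp3a11 alone had groups that did not overlap, with 15168, 11645 and 9451 in LIGHT Tg against 16514, 20056 and 19478 in WT. The transgene's own gene, Tnfsf14, lay below the filter at 55.7, 19.3 and 26.7 in LIGHT Tg against 7.70, 11.9 and 7.43 in WT.

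Only a few chemokine genes were called, and they moved in different directions. At 2 probe sets, both of the inflammatory ligand Ccl9, the signal rose, and at 1, of the lymphoid ligand Cxcl12, it fell, while the other 28 of 31 did not pass. Over all tested probe sets 1.17% were called (0.715% higher, 0.457% lower), and the 3 of 31 come from 2 genes. Without LIGHT Tg 3 only 1 of the 31 passed, a Ccl9 probe set, and without any other single array 2 did, again those of Ccl9. With the block 5 of the 31 passed, where 6.47% of all tested probe sets did (3.26% higher, 3.21% lower); the 2 added were Cxcl11 and the receptor gene Cx3cr1, both higher. Neither passed with the block and no filter (adjusted p = 0.0895 and 0.0887), a setting chosen after seeing the data, where 3 member probe sets passed, those of Ccl9 and Cxcl12. Over the 50 genes at their brightest probe set, 25 differences were positive and 25 negative, with a median of 0.01, and the median of all probe sets was -0.01.

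The start regions of 3 genes are shown. Of these Ccl9 and Ccl6 are neighbours that encode ligands of Ccr1, of which Ccl9 rose and Ccl6 was not called. Cxcl12 is the ligand that was called lower at 1 probe set, though not at its brightest. Each window runs from 250 bases before the transcript start to 50 after it, in the RefSeq build GRCm38.p6: Ccl9 at chr11:83578587-83578886 on the minus strand, Ccl6 at chr11:83593038-83593337 on the minus strand and Cxcl12 at chr6:117168285-117168584 on the plus strand. Capitals mark matches, on either strand, to 4 short motifs. The kappaB type is GGG and TTCC with any 3 bases between them. The interferon-response type is GAAA repeated after any 2 bases. The AP-1 type is TGA and TCA around any 1 base, and the TATA box is TATAAA.
Ccl9: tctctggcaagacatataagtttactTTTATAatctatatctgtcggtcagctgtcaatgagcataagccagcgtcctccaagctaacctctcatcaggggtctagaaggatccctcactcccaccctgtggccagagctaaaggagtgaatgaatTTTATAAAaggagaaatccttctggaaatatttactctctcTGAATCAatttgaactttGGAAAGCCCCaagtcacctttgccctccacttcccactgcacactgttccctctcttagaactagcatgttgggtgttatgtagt
Ccl6: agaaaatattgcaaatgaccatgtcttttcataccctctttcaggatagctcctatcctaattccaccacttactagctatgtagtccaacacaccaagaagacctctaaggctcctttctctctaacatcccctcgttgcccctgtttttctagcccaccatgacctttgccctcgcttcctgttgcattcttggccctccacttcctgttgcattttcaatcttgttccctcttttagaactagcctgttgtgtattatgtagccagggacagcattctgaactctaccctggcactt
Cxcl12: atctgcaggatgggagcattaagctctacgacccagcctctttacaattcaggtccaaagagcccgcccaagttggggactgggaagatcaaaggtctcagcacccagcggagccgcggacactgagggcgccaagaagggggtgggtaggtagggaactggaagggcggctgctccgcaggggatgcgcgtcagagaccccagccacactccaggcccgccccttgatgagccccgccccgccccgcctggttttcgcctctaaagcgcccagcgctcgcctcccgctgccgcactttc

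The Ccl9 window held 1 kappaB-type match on the minus strand with its first base 35 bases before the start, 1 AP-1-type match 53 bases before it, and TATAAA on the minus strand at 224 and at 94 bases and on the plus strand at 92 bases before it, of which the last pair overlap. The Ccl6 and Cxcl12 windows held no match to any of the 4. The Ccl9 and Ccl6 windows share gccctccacttcc as their longest common run, 13 bases, which begins 14 bases before the start in Ccl9 and 55 before it in Ccl6. The windows had 43.7% G and C in Ccl9, 45.3% in Ccl6 and 64.7% in Cxcl12.

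Of the 50 genes 37 had a window in the RefSeq table, 41 windows in all. The kappaB-type motif was in 9 of these 41 (21.95%) and in 5.56% of the 32851 windows of all genes. The 9 were those of Ccl1, Ccl20, Ccl9, Ccr3, Ccr6, Cxcl1, Cxcl10, Cxcl2 and Cxcl3, and where a match and its reverse overlapped, as in Cxcl1, Cxcl2, Cxcl3 and Ccl1, the window was counted once. Cxcl1, Cxcl2 and Cxcl3 are related genes close together on chromosome 5 and hold the same match, GGGAATTTCC. These windows are therefore not independent of each other, and the shares were not tested. TATAAA was in 12 (29.27%, against 13.62% of all windows), the AP-1-type motif in 8 (19.51%, against 7.81%) and the interferon-response type in 2, Cxcl10 and Cxcl14 (4.88%, against 3.44%). Of the 9 genes with the kappaB-type motif, Ccl9 was the called one, and Cxcl1 and Cxcl10 were tested and not called. The other 6, Ccl1, Ccl20, Ccr3, Ccr6, Cxcl2 and Cxcl3, lay below the filter. A match is a description of letters and not a bound site.

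Ccl9, also known as MIP-1 gamma, is a CC chemokine of mice made by myeloid cells among others that acts on Ccr1. At its brighter probe set its signal was 8844, 9749 and 8761 in LIGHT Tg 1 to 3, against 2799.9, 2364 and 3052 in WT 1 to 3. At the dimmer it was 5107, 4129.8 and 5073 in LIGHT Tg, against 1140.0, 1392 and 1612 in WT. At both probe sets every LIGHT Tg array lay above every WT array with a wide gap.

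Ccl9 rose by 1.74 ± 0.138 at the first probe set (3.34-fold, SE, n = 3 per group, adjusted p = 0.00315) and by 1.80 ± 0.178 at the second (3.47-fold, adjusted p = 0.00757). The pair gave 1.66 and 2.16, the arrays titled 30 to 35 gave 1.78 and 1.61, and with the block the adjusted p was 0.000572 and 0.00187. The first probe set was called whichever array was left out; the second was not called without LIGHT Tg 3 (adjusted p = 0.0733).

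**Figure D1:**
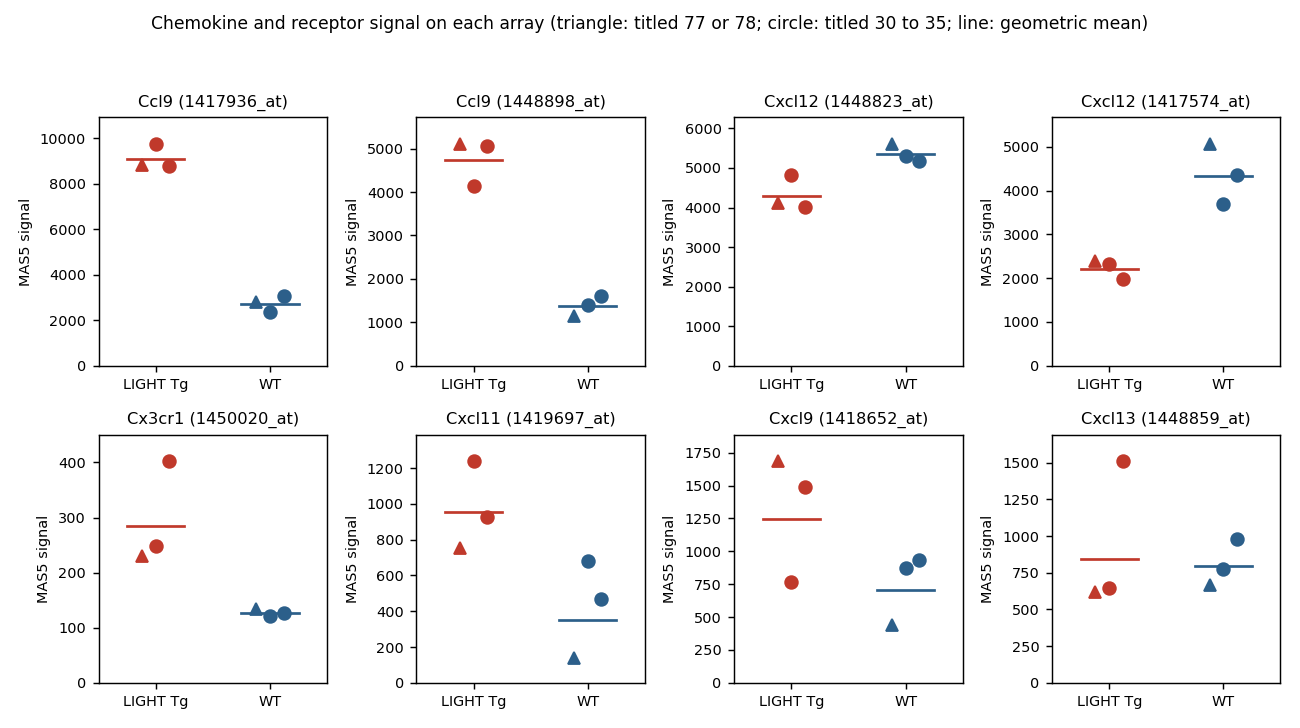
MAS5 signal (linear axis from 0) of 6 genes at 8 probe sets on each array, LIGHT Tg left of WT, with triangles for the arrays titled 77 or 78, circles for those titled 30 to 35 and a line at the geometric mean. The 3 LIGHT Tg arrays lie above the 3 WT arrays for both Ccl9 probe sets, Cx3cr1 and Cxcl11, and below them for both Cxcl12 probe sets. The groups overlap for Cxcl9 and Cxcl13.

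No macrophage marker was called beside Ccl9. All 10 markers matched of 11 listed passed the filter and none was called in either fit (median difference -0.07), with summed signal of 19999.5 to 31387 in LIGHT Tg and 27931 to 32946 in WT; their part in the result was not tested. In whole liver, fewer or more cells of a type and less or more RNA per cell cannot be told apart. Ccl6, the next gene on the chromosome and also a ligand of Ccr1 in mice, had 995, 571 and 986 in LIGHT Tg, against 1239.6, 932 and 1052 in WT. Its groups overlapped, and the difference was -0.37 ± 0.259 (adjusted p = 0.725), with -0.10 at its other tested probe set.

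The genes on the other side of Ccl6 were not called either. Ccl4, an inflammatory ligand made by activated leukocytes, had 231, 562 and 539 in LIGHT Tg, against 275, 512 and 464 in WT, a difference of 0.03 ± 0.407. Ccl3 lay below the filter at 13.1 to 56.1 in LIGHT Tg and 9.53 to 30.7 in WT. Ccl5, a T cell product that neighbours Ccl9 on its other side, was below it as well, with 64.4, 142 and 331 in LIGHT Tg against 38.8, 107 and 229.9 in WT. Of 11 CC ligand genes in the groups on chromosome 11, 4 were tested at their brightest probe set, and Ccl9 was the called one. Ccr1, the receptor of Ccl9, was below the filter at both probe sets, with 31.7, 118 and 119 in LIGHT Tg against 15.2, 97.8 and 84.4 in WT at the brighter, where its difference was 0.61 ± 0.874 in the fit without the filter (adjusted p = 0.971).

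**Figure D2:**
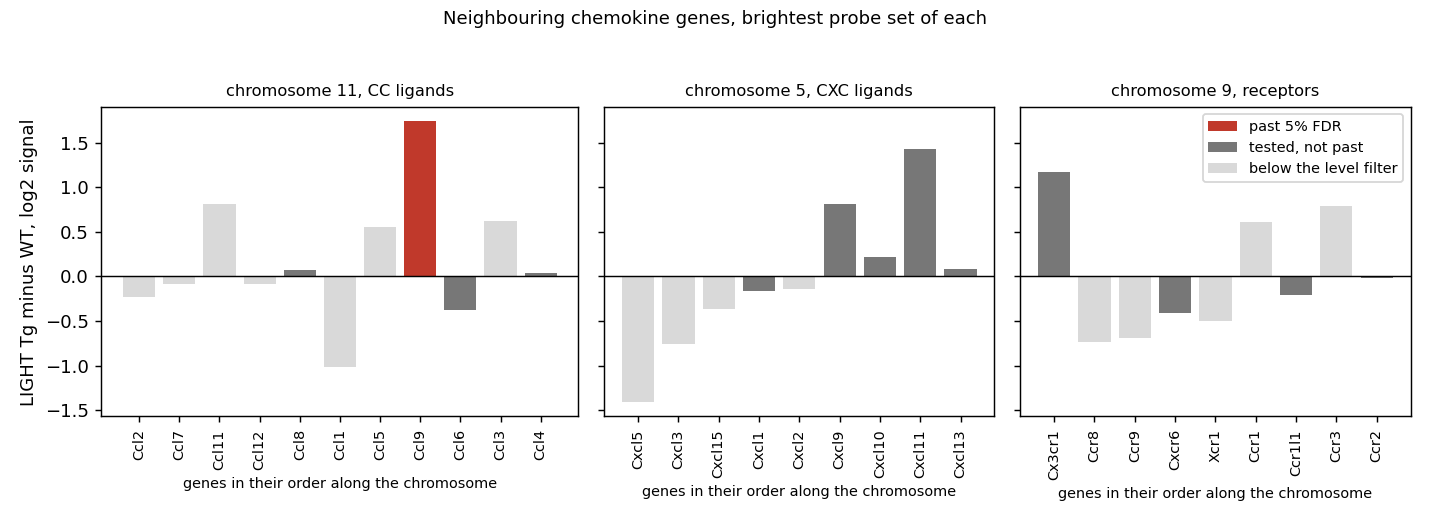
Difference in log2 signal, LIGHT Tg minus WT, at the brightest probe set of each gene, for chemokine genes in their order along chromosomes 11, 5 and 9 (other genes lie between some of them). Ccl9 at 1.74 is the called gene, its neighbour Ccl6 has -0.37, Cxcl11 and Cx3cr1 have 1.43 and 1.17 without passing, and pale bars are genes below the level filter, whose values carry standard errors of 0.356 to 1.34.

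Cxcl12 is the stromal ligand of Cxcr4 that holds blood progenitors and lymphocytes in tissue. At 1 probe set it had 2388, 2319 and 1972 in LIGHT Tg, against 5065, 3694 and 4347 in WT. At its brightest it had 4110.4, 4813 and 4014 in LIGHT Tg, against 5605, 5299 and 5172 in WT. All LIGHT Tg arrays lay below all WT arrays at both, but the gap was narrow at the second.

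Cxcl12 fell by 0.97 ± 0.165 at the first probe set (1.95-fold lower, SE, n = 3 per group, adjusted p = 0.048), and with the block the adjusted p was 0.00586. At the second the difference was -0.32 ± 0.125 (1.25-fold lower, adjusted p = 0.403, and 0.125 with the block). The pair gave -1.08 and -0.45, and the arrays titled 30 to 35 gave -0.91 and -0.25. Another, dim probe set had 29.5, 59.8 and 45.3 in LIGHT Tg and 15.3, 49.4 and 81.6 in WT, which overlap. The call at the first probe set ended when any 1 array was left out (difference -1.08 to -0.85, adjusted p = 0.0709 to 0.231), without the filter (adjusted p = 0.0653), with quantile normalization (0.0694), without the variance trend (0.104) and with robust fitting (0.051).

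Of the stromal and endothelial markers set beside Cxcl12, none fell past the threshold. None of 9 stellate cell and fibroblast markers was called (median -0.07), with summed signal of 16746 to 18181 in LIGHT Tg and 16934 to 19966 in WT. Among 9 sinusoidal endothelial markers 1 rose, Lyve1, and 3 rose with the block (median 0.24), with summed signal of 14091 to 17162 in LIGHT Tg and 10298.5 to 11945 in WT. Those added with the block were Stab2 and Fcgr2b. Over all tested probe sets 0.715% were called higher, and 3.26% with the block. The part of these markers in the Cxcl12 result was not tested. Cxcr4 lay below the filter, with 23.5, 42.4 and 72.6 in LIGHT Tg against 58.4, 107 and 81.0 in WT. These overlap, and its difference was -0.94 ± 0.559 in the fit without the filter (adjusted p = 0.814).

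Cxcl13, which draws B cells into follicles through Cxcr5 and is a known lymphotoxin beta receptor target in spleen, did not separate the genotypes. It had 622, 645 and 1509.9 in LIGHT Tg, against 665, 776 and 981 in WT, at its brighter probe set. At its other probe set it had 119, 133 and 579.6 in LIGHT Tg, against 77.05, 274 and 377 in WT. LIGHT Tg 3 was the highest array at both probe sets. The differences were 0.09 ± 0.364 and 0.07 ± 0.784 (adjusted p = 0.983 and 0.995).

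The lymphoid receptors were all below the filter. Cxcr5, the B cell receptor for Cxcl13, had 55.3, 52.6 and 49.7 in LIGHT Tg, against 76.3, 48.7 and 67.0 in WT. Ccr7, which guides T cells and dendritic cells towards Ccl19 and Ccl21, had 13.3, 18.1 and 42.6 in LIGHT Tg, against 10.6, 10.03 and 11.9 in WT. Its LIGHT Tg arrays lay above its WT arrays at these low signals, with a difference of 1.01 ± 0.596 in the fit without the filter (adjusted p = 0.81). B cell and plasma cell markers summed to 5874 to 7516 in LIGHT Tg and 1918 to 2184 in WT. The median difference of the 6 tested was 0.07, and 1 was called higher, where 0.715% of all tested probe sets were. The 1 called was the immunoglobulin gene Ighm, with 5978, 3872 and 4375 in LIGHT Tg against 399, 414 and 330.4 in WT. Ighm made up most of each LIGHT Tg sum. The other tested markers were not called, with Jchain at 0.94, Pax5 at 0.14, Blnk at 0.004, Mzb1 at -0.10 and Ms4a1 at -0.19. The T cell markers Cd3e, Cd3d and Cd3g were below the filter on the mean, and the 9 matched summed to 1198 to 1548 in LIGHT Tg and 1163 to 1361 in WT. The probe sets for Ccl19 and Ccl21, the other lymphoid ligands, carry several gene symbols each and were not used here.

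Set side by side, 1 of 4 tested lymphoid ligand probe sets fell, of Cxcl12, and none rose (Cxcl12 and Cxcl13, median difference -0.12). Of 14 tested inflammatory ligand probe sets 2 rose, both of Ccl9, and none fell (median 0.22 over 9 tested genes). Over all tested probe sets 0.457% were called lower and 0.715% higher. The contrast in calls rests on 1 gene in each list. Over all 21 inflammatory ligand genes, those below the filter included, the median was 0.07, with 12 positive and 9 negative differences. The median of all tested probe sets was -0.01. The list median of single arrays varied within a genotype by 0.244 (SD) for the 2 lymphoid ligands and by 0.28 for the tested inflammatory ligands. That is a spread of single arrays and not the error of a difference between group means. Neither median was tested. The lymphoid median was -0.30 without LIGHT Tg 3 and 0.01 without LIGHT Tg 1, and -0.28 when all probe sets of a gene were averaged. The inflammatory median was 0.44 without LIGHT Tg 2 and 0.14 without LIGHT Tg 3.

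**Figure D3:**
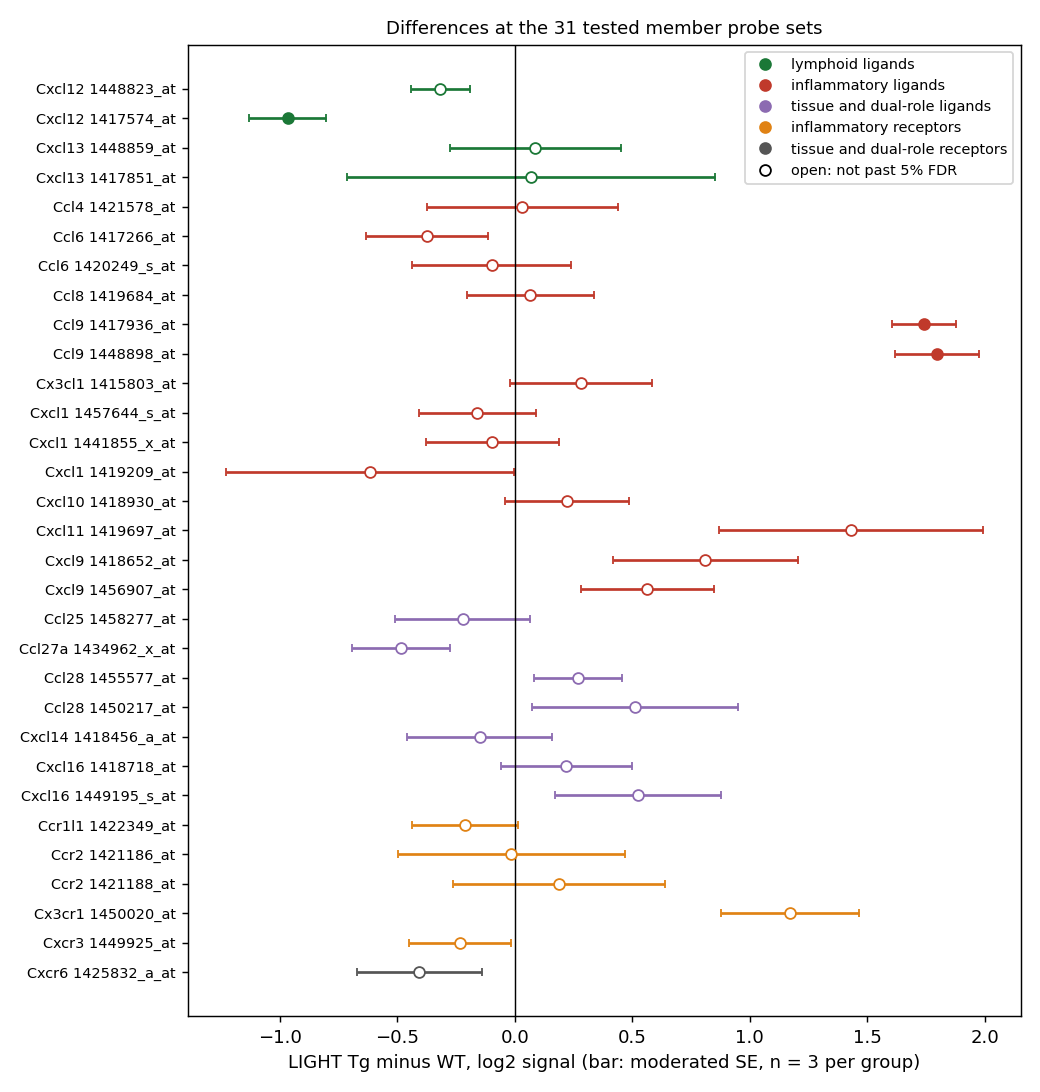
Difference in log2 signal, LIGHT Tg minus WT, with the moderated standard error (n = 3 per group) at the 31 tested probe sets, coloured by role and filled where past 5% FDR. Ccl9 at 1.74 and 1.80 and Cxcl12 at -0.97 are filled, Cxcl11, Cx3cr1 and Cxcl9 lie right of 0 without passing, and the second Cxcl12 probe set lies at -0.32.

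Cxcl9, Cxcl10 and Cxcl11 are interferon-induced ligands of Cxcr3, the receptor of effector T cells, and lie together on chromosome 5. Cxcl11 had 753, 1238 and 929 in LIGHT Tg, against 138, 680.3 and 471 in WT. All LIGHT Tg arrays lay above all WT arrays, but the WT arrays themselves spread widely. The difference was 1.43 ± 0.56 (2.70-fold, adjusted p = 0.396, and 0.0487 with the block), with 2.45 in the pair and 0.92 in the other arrays. Without WT 1, the lowest array, it was 0.75. The dimmer probe set, below the filter, had 113, 128 and 134 in LIGHT Tg, against 53.4, 105 and 135 in WT, which overlap, with a difference of 0.45 ± 0.439 in the fit without the filter (adjusted p = 0.941). RefSeq lists Cxcl11 of the C57BL/6J assembly as a transcribed pseudogene, so the signal there measures a transcript and not a known functional protein.

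Cxcl9 had 1685, 767 and 1488 in LIGHT Tg, against 439, 870.3 and 933 in WT. These overlap through LIGHT Tg 2, and the difference was 0.81 ± 0.394 (adjusted p = 0.535, and 0.262 with the block), 1.94 in the pair but 0.25 in the other arrays. Its other probe set had 281, 181 and 276 in LIGHT Tg, against 166, 140.3 and 186 in WT, a difference of 0.56 ± 0.283 (adjusted p = 0.552); its WT mean of 7.35 lay below the filter level, so it was tested because of its LIGHT Tg signals. Cxcl10 had 432, 267 and 401 in LIGHT Tg, against 370.3, 303 and 259 in WT, which overlap, with a difference of 0.22 ± 0.262 (adjusted p = 0.883). None of this trio passed without the block. Their receptor gene Cxcr3 had 236, 306 and 315 in LIGHT Tg, against 294, 351 and 358 in WT, with a difference of -0.23 ± 0.216 (adjusted p = 0.83).

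Cx3cr1, the receptor of monocytes, resident macrophages and some lymphocytes for Cx3cl1, had 231, 248 and 402 in LIGHT Tg, against 133, 120.5 and 126 in WT. All LIGHT Tg arrays lay above the tightly grouped WT arrays. The difference was 1.17 ± 0.294 (2.25-fold, adjusted p = 0.152, and 0.0452 with the block), with 0.79 in the pair and 1.36 in the other arrays. Its WT mean of 6.98 lay below the filter level, so it was tested because of its LIGHT Tg signals, and with the block and no filter it did not pass (adjusted p = 0.0887). Without LIGHT Tg 3 this probe set fell below the filter and was not tested. A dimmer probe set had 91.6, 96.4 and 25 in LIGHT Tg, against 42.0, 5.10 and 18.6 in WT, where LIGHT Tg 3 overlaps WT 1. The macrophage markers given with Ccl9 had none called, nor had the 4 tested dendritic cell markers (median 0.11), and their part in the result was not tested.

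Its ligand Cx3cl1, a membrane-bound chemokine of endothelium and epithelium, had 335, 176 and 237 in LIGHT Tg, against 225, 173 and 199.97 in WT. The groups overlap, and the difference was 0.28 ± 0.302 (adjusted p = 0.863). Its 3 dimmer probe sets had differences of 0.67, 0.31 and 0.80 in the fit without the filter, none called. Within the monocyte axis, Ccr2 had 161, 283 and 387 in LIGHT Tg, against 139, 337 and 390.4 in WT, with a difference of -0.01 ± 0.482. Its second tested probe set had 394, 125 and 296 in LIGHT Tg, against 276, 165 and 217 in WT, a difference of 0.19 ± 0.451, and ranked the arrays differently, with the pair high where the first had it low. The main ligand of Ccr2, Ccl2, was below the filter and uneven, with 156, 7 and 207 in LIGHT Tg against 119, 56.7 and 54.5 in WT. Ccl8, another monocyte ligand, had 304, 462 and 499 in LIGHT Tg, against 328, 374 and 498 in WT, with a difference of 0.07 ± 0.269.

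Ligands of Cxcr2, which recruit neutrophils, were not called. Cxcl1 had 1517, 1048 and 1577 in LIGHT Tg, against 1991, 1211 and 1448 in WT, at its brightest probe set, with a difference of -0.16 ± 0.249 (adjusted p = 0.925). The other 2 had -0.09 ± 0.283 and -0.62 ± 0.612. At the last, LIGHT Tg arrays stood at 321, 257 and 1444, below and above all WT arrays of 927, 636 and 726. Cxcl2, Cxcl3, Cxcl5 and Cxcr2 itself lay below the filter. Of these Cxcl5 was uneven, with 4.38, 5.05 and 149 in LIGHT Tg against 62.4, 21.8 and 45.8 in WT. Neutrophil markers, none of 5 tested called, summed to 1245 to 6167 in LIGHT Tg and 2317 to 5323 in WT.

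Among ligands of epithelia and of dual role, 5 of 10 genes were tested and none was called. Ccl27a, a keratinocyte ligand of Ccr10, had 386, 592 and 480.2 in LIGHT Tg, against 621, 718 and 671 in WT. These do not overlap, and the difference was -0.48 ± 0.209 (adjusted p = 0.464, and 0.113 with the block); the probe set may read near-identical Ccl27 copies. Cxcl16, a scavenger receptor and ligand of Cxcr6, had 754, 555 and 572 in LIGHT Tg, against 772, 487 and 404 in WT, with a difference of 0.22 ± 0.278. A dimmer tested probe set of Cxcl16, whose WT mean of 7.31 lay below the filter level, gave 0.52 ± 0.354 (adjusted p = 0.712). Cxcr6, which holds NKT and T cells in liver sinusoids, had 122, 158 and 168 in LIGHT Tg, against 178, 209 and 203 in WT. Its groups did not overlap, and the difference was -0.41 ± 0.265 (adjusted p = 0.696). Its LIGHT Tg mean of 7.21 lay below the filter level, so it was tested because of its WT signals. NK cell markers, of which 3 were tested and none called, summed to 935 to 1147 in LIGHT Tg and 1053 to 1401 in WT.

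None of the remaining tested genes was called. Ccl28, a mucosal epithelial ligand, had 404, 381 and 434 in LIGHT Tg, against 355, 360.1 and 298 in WT, without overlap and with a difference of 0.27 ± 0.187 (adjusted p = 0.722). Its other tested probe set had 326, 246 and 197 in LIGHT Tg, against 309, 99.4 and 178 in WT, which overlap, with a difference of 0.51 ± 0.439 (adjusted p = 0.8). Ccl25, the ligand of the gut-homing receptor Ccr9, had -0.22 ± 0.288. Its dimmer probe set had 67.8, 88.4 and 57.0 in LIGHT Tg, against 200.2, 134 and 139.6 in WT, without overlap, and -1.15 ± 0.379 in the fit without the filter (adjusted p = 0.421). Cxcl14, an epithelial ligand, had -0.15 ± 0.309, and Ccr1l1, a receptor-like gene next to Ccr1, had 224, 315 and 312 in LIGHT Tg against 292, 341 and 343 in WT, -0.21 ± 0.226.

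In all, 5 of the 31 tested probe sets had every LIGHT Tg array above every WT array, where 8.17% of all tested probe sets did, and 4 had every one below, where 9.19% did. These counts include Cx3cr1 and Cxcr6, each tested through the genotype where it was higher. Of 9 genes with at least 2 tested probe sets, 8 had differences of 1 sign, and Ccr2 had both. Among the 8, Cxcl9 and Cxcl16 count through a probe set whose WT mean (7.35 and 7.31) lay below the filter level, which favours a positive sign. The share over all genes with several tested probe sets was not counted. The 47 probe sets below the filter had signals from 3 to 365 and differences from -1.89 to 1.93 with standard errors of 0.356 to 1.34. None was called in the fit without the filter (lowest adjusted p = 0.421, and 0.148 with the block). A signal at that level carries no bound, as detection calls were not used here, so the values do not show which of these 29 genes the liver lacks.

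Some chemokine genes differed between the sets of title numbers, which also differ in sex by Xist and Eif2s3y. With genotype in the fit, 5 of 31 probe sets differed between the sets, where 27.4% of all tested probe sets did. Cxcl14 and Cxcl16 were higher on the arrays titled 77 and 78, by 0.71 and 0.61, and Ccl4, Ccr2 and Cxcl11 were lower, with -1.04, -1.21 and -1.27 at 1 probe set each. Between the sets Ccl9 (adjusted p = 0.994 and 0.616) and Cxcl12 (adjusted p = 0.172 and 0.996) were not called at either probe set. The genotype difference had the same sign in both sets at 24 of the 31, and the share over all tested probe sets was not counted. The pair is 1 LIGHT Tg array against 1 WT array, so a test of whether the difference varied between the sets cannot decide this. LIGHT Tg 1 was the highest array at 9 and the lowest at 9 of the 31 probe sets, LIGHT Tg 3 the highest at 7 and the lowest at 2, and WT 1 the highest at 6 and the lowest at 5.

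**Figure D4:**
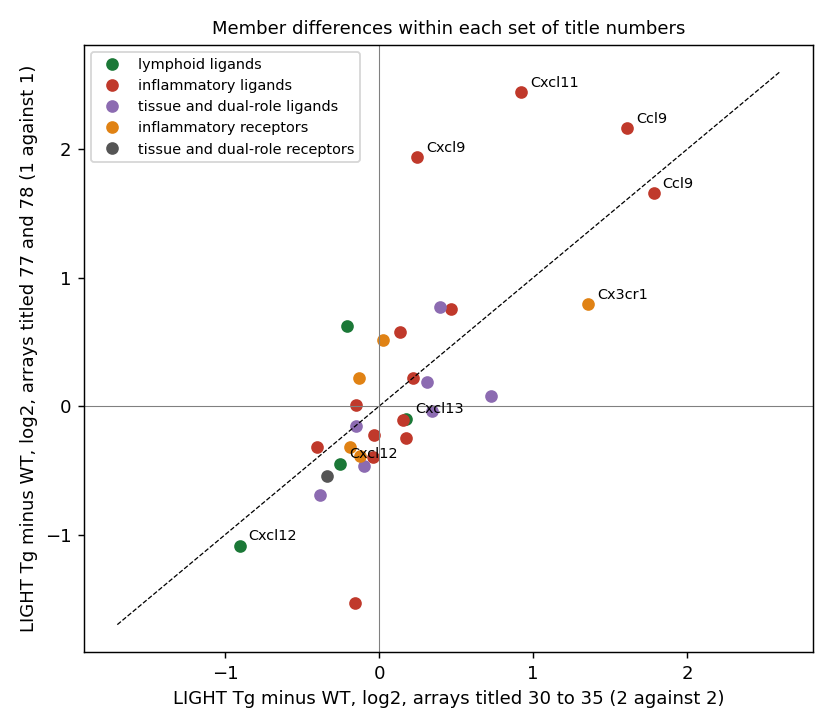
LIGHT Tg minus WT in log2 signal at the 31 tested probe sets, in the arrays titled 30 to 35 (horizontal axis, 2 against 2) and in those titled 77 and 78 (vertical axis, 1 against 1), with the dashed line at equal differences. The brighter Ccl9 probe set (1.78 and 1.66) and the called Cxcl12 probe set (-0.91 and -1.08) lie near the line in opposite corners, the other Ccl9 probe set lies above it at 1.61 and 2.16, and Cxcl9 and Cxcl11 lie further above it, at 1.94 and 2.45 in the pair.

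Of 22 matched genes of the chemokine pathway outside the naming rule, 19 were tested, 2 rose and 17 did not pass, and with the block 2 rose and 2 fell (median 0.11). Over all tested probe sets 0.715% were called higher and 0.457% lower, and with the block 3.26% and 3.21%. Grk3, a kinase that desensitises chemokine and other receptors, had 1055, 1162 and 1154 in LIGHT Tg, against 369, 415 and 514 in WT, and rose by 1.39 ± 0.186 (2.62-fold, adjusted p = 0.0218). Sdc1, a heparan sulphate proteoglycan that binds chemokines, had 8917, 8992 and 9174 in LIGHT Tg, against 3894, 5351 and 4955 in WT, and rose by 0.94 ± 0.143 (1.92-fold, adjusted p = 0.0335). With neither gene did the groups overlap. Dpp4, a peptidase that trims Cxcl12 and other chemokines, had 1650.5, 1448 and 1327 in LIGHT Tg, against 1995.5, 2433 and 2228 in WT, a difference of -0.59 ± 0.158 that passed with the block only (adjusted p = 0.183, and 0.0488 with the block). Rarres2, the precursor of chemerin, had 1816, 4696 and 2398 in LIGHT Tg, against 8216, 9070.1 and 6907 in WT, a difference of -1.55 ± 0.331 that also passed with the block only (adjusted p = 0.0965, and 0.0247 with the block). The atypical receptor Ackr3, which takes up Cxcl12, lay below the filter, and Ackr1 and Ackr2 were tested and not called.

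Upstream, none of the 7 tested genes of 13 matched for LIGHT, its receptors and NF-kappaB was called in either fit. Ltbr had 2361, 1398 and 1340.2 in LIGHT Tg, against 3337, 1518.5 and 1859 in WT, which overlap, with a difference of -0.36 ± 0.344 (adjusted p = 0.833). Relb and the lymphotoxin genes Lta and Ltb lay below the filter, as did Tnfrsf14, which had 44.8, 20.2 and 23.9 in LIGHT Tg against 14.7, 21.3 and 17.5 in WT.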

How the data were processed

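RNA of mouse liver was measured on 6 one-colour Affymetrix arrays, 3 LIGHT Tg and 3 WT. The authors deposited MAS5 signal values, an intensity per probe set on a linear scale, 1 table column per sample; MAS5 is named per the submitters' processing notes, and its version and settings were not stated there. Of 45101 table entries, 64 controls were left out, 106 values below 1 were set to 1 and log2 was taken, with no further normalization. Probe sets with a mean log2 signal at or above the median (22519) were fitted with limma 3.58.1 in R 4.3.3 (lmFit, eBayes with a variance trend, two-sided, Benjamini-Hochberg adjustment over all 22519, threshold 0.05). The code of the fit was tried on simulated data with independent noise and no effect of title-number set, unlike these data. That trial lends the calls no weight. The number of arrays limits the precision, and an exact permutation test of 3 against 3 cannot go below 0.1.

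Probe sets were named from GEO's platform annotation: 34945 carry 1 symbol, 932 several and 9160 none. All 78 member identifiers matched RefSeq. For a gene with several probe sets the one with the highest mean signal was the main one. Values on each array are given for genes called in any of the fits, all lymphoid members, the brightest ligands and receptors, and the largest differences past the filter. Others named (Ccl2, Ccl3, Ccl5, Ccl8, Ccr1, Cxcl5, Ccl25 and Ccl28 among them) were added for their role, neighbourhood or group separation after their values were seen. The members and lists were chosen with earlier results of these data known. Alternatives changed the filter, offset, normalization, variance model, array weights, title-set block and arrays included.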

Additional observations from a re-analysis of the deposited data

How the results depend on the processing

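The 264 calls over all probe sets depended on the fit: 148 without the variance trend, 1992 with array weights, 1457 with the title-set block, 975 in the arrays titled 30 to 35, 1090 with the block and no filter (chosen after seeing the data), and 34 to 311 when 1 array was left out. The 3 member calls became 5 with the block and 1 to 2 when 1 array was left out. The median of the tested inflammatory ligands, 0.22, was 0.81 with the filter at the 75th percentile, where fewer genes were tested. No paired analysis was possible because replicate numbers in the labels do not pair the samples; the title-set block stood in for one. The first Ccl9 probe set was called under all 17 alternatives and the second under 16. The first Cxcl12 probe set was called under 7 of 17, Cx3cr1 under 2 of 15 and Cxcl11 under 1 of 17. Cx3cr1 fell below the filter without LIGHT Tg 3 and with the filter at the 75th percentile, so it was not tested there. The cause of these changes was not tested. Members of low signal had standard errors up to 1.34.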
